A study of Rattus norvegicus with 4 samples.

Results

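miR-221 and miR-222 are a pair of related microRNAs (miRNAs), small RNAs that guide a silencing complex to matching sites in messenger RNAs. Each is cut from a hairpin precursor that can yield a 3p and a 5p arm, and the 4 arms were found by their names among the 727 rat miRNA probes of the array, with 1 spot each. Both 3p arms were detected on all 4 arrays, and both were higher in diabetic than in control fracture callus on day 11 and on day 5. miR-221-5p was detected on no array, and miR-222-5p lay just above the detection limit on the control arrays alone.

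The fracture callus is the repair tissue that forms around a broken bone. The donors were 12-week-old male Sprague-Dawley rats whose femoral shaft had been fractured under closed skin and stabilised with a wire in the marrow canal. Diabetic rats had received 1 intravenous dose of 40 mg/kg streptozotocin, which destroys the insulin-producing cells of the pancreas, and had a blood glucose over 300 mg/dl. Control rats had received sodium chloride and had normal glucose. The 4 groups were diabetic callus of day 11, control callus of day 11, diabetic callus of day 5 and control callus of day 5 after fracture. Each was 1 array that received a pool of 5 rats' callus, according to the labels, so no difference between groups has a replicate check and no p-value was computed.

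The genes of miR-221 and miR-222 lie close together on the X chromosome of mammals and are transcribed as a pair. Their 3p arms are the usual functional strands, are abundant in endothelial and vascular smooth muscle cells, and are known repressors of the cell-cycle inhibitor p27 (Cdkn1b) and of the receptor tyrosine kinase Kit. In mesenchymal cells they have been studied as brakes on bone and cartilage differentiation, and an inhibitor of miR-222 has been tried in a rat model of refractory fracture.

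The mature sequences are shown first because the seed, the stretch that pairs with targets, separates the arms into a shared and an unshared part. The RefSeq table of build GRCr8 held all 4 arms. Capitals mark the seed, bases 2 to 8 from the 5′ end.
rno-miR-221-3p: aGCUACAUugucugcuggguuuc
rno-miR-222-3p: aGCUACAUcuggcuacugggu
rno-miR-221-5p: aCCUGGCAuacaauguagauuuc
rno-miR-222-5p: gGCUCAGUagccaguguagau
The 3p arms are 23 and 21 bases long, share their first 8 bases and therefore the seed, and share a further run of 6 bases, cugggu, near the 3′ end. A site that pairs with this seed reads AUGUAGC in the messenger RNA. No other mature rat miRNA in that table carries the seed of the 3p arms, and none shares the seed of either 5p arm. Of the 727 array miRNAs, 653 had a mature entry of the same name there. Probe sequences were not used here, and whether the 3p probes bind each other's miRNA was not tested.

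The precursors are shown because both arms of each come from 1 transcript, so that an arm without signal sits beside one with signal. Both lie on the plus strand of the X chromosome in GRCr8 and are annotated as miRNA genes, Mir222 at chrX:6022621-6022723 and Mir221 at chrX:6023182-6023290, with 458 bases between them. Capitals mark the 5p arm and then the 3p arm.
Mir222: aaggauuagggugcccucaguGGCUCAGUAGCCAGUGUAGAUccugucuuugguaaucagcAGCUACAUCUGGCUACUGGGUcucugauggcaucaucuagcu
Mir221: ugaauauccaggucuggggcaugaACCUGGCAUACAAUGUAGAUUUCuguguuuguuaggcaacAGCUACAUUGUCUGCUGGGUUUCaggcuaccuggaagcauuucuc
The 5p arms share a run of 7 bases, uguagau, and have different seeds.

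Detection was defined against the blank spots of each array. A level is a spot's intensity less the mean blank intensity, on a scale where the typical (median) miRNA among the 400 found on every array has 100. Between 482 and 560 miRNAs were detected per array. The diabetic day 11 array was the dimmest, with a blank mean of 73.4 against 117 to 141 on the others and a mean of 14528 for the first spiked control RNA against 31916 to 36103 on the others. Its levels were multiplied by 2.05, and those of the other arrays by 0.814 to 0.987. The error given after ± is a technical one, from the scatter of the spike and blank spots, and does not cover variation among rats, pools or hybridisations.

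miR-221-3p was measured far above the blanks on every array. Its unscaled spot intensity was 453 in diabetic and 592 in control callus on day 11. The day 5 values were 857 in diabetic and 694 in control callus. After blank correction and scaling its level was 778 in diabetic and 367 in control callus on day 11. On day 5 its level was 730.4 in diabetic and 475 in control callus. Both diabetic levels thus lay above both control levels, whereas the unscaled spot of day 11 was dimmer on the diabetic array. The spots stood 131, 64.1, 130.2 and 94.7 blank SDs above the blank mean for diabetic day 11, control day 11, diabetic day 5 and control day 5.

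miR-222-3p, the partner with the same seed, showed the same separation. Its level was 119 in diabetic and 81.6 in control callus on day 11. The day 5 values were 135 in diabetic and 70.3 in control callus. Its spots stood 20.1, 14.2, 24.1 and 14.0 blank SDs above the blank mean in the order used for miR-221-3p, so that the blank spread weighs more on this probe. In the authors' deposited value table, where arrays were scaled to their own listed miRNAs, miR-221-3p was at 295 in diabetic and 146 in control callus on day 11, and at 339.6 in diabetic and 179 in control callus on day 5. The deposited values of miR-222-3p were 45.1 in diabetic and 32.3 in control callus on day 11. The day 5 values were 62.8 in diabetic and 26.5 in control callus. The diabetic values lay above the control values there too. The deposited values come from the same spots less the same blank mean, with another scaling, and are no second measurement.

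**Figure D1:**
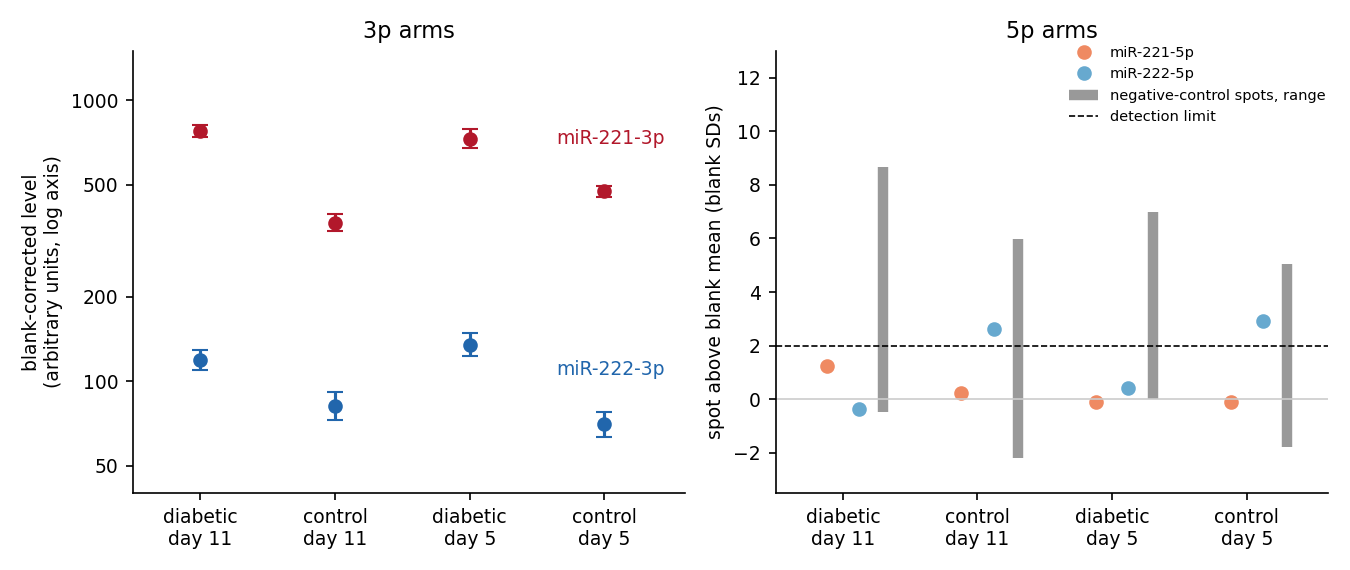
Left, blank-corrected levels of miR-221-3p and miR-222-3p (arbitrary units, log axis) on the 4 arrays, 1 pool of 5 animals each; bars are the technical error of 1 SD, and levels of different probes are not comparable. Right, 5p spots in blank SDs above the blank mean, with the detection limit at 2 SDs (dashed) and the range of the 24 negative-control spots (grey); both 3p arms are higher on the diabetic array of each day, and every 5p spot lies within or below the grey range.

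The first comparison asks how diabetic callus differed from control callus on day 11. miR-221-3p was 2.12-fold higher in diabetic callus, with a log2 difference of 1.08 ± 0.13. It held place 10 from the top among the 433 miRNAs detected on both arrays, of which 17 (3.93%) were at least 2-fold higher. In either direction, 26 of the 433 differed by at least as much. miR-222-3p was 1.46-fold higher, with a log2 difference of 0.54 ± 0.20, and held place 59 of 433. The median of all 433 was 0.034, and 52.7% of them were higher at all. Scaling the dim diabetic array by the first spike control in place of the miRNAs gave 1.06 for miR-221-3p and 0.52 for miR-222-3p. Both differences were larger than their technical error, and miR-221-3p passed the 2-fold mark while miR-222-3p did not.

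The local background around the spot gives a second correction (normexp, with quantile normalisation), and it gave smaller differences of the same sign. By that correction the log2 difference on day 11 was 0.76 for miR-221-3p and 0.25 for miR-222-3p, both short of 2-fold. Under both corrections together, 1 of the 433 miRNAs (0.231%) was at least 2-fold higher, and neither arm was that miRNA. The local background was 16.5% of the miR-221-3p spot in diabetic and 37.6% in control callus on day 11, and 51.0% and 58.6% of the miR-222-3p spot. It followed the spot intensity across miRNAs on every array, which is why the blank spots served as the main correction.

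On day 5 the order of the arms was the other way round, with miR-221-3p minus miR-222-3p at -0.32 ± 0.24. With no background subtracted the arms were level there, both at 0.45. miR-222-3p was 1.92-fold higher in diabetic callus, with a log2 difference of 0.94 ± 0.20, and held place 25 of the 468 miRNAs detected on both arrays. miR-221-3p was 1.54-fold higher, at 0.62 ± 0.13, and held place 61. Neither passed the 2-fold mark, which 20 of the 468 (4.27%) passed upward, while 54.9% were higher at all. The local-background correction gave 0.37 for miR-222-3p and 0.26 for miR-221-3p. With the authors' deposited values miR-222-3p was past the 2-fold mark on day 5, at 1.25, but those values put the median of all miRNAs at 0.34 in that comparison, and relative to this shift miR-222-3p stood at 0.90.

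The 3p probes are neighbouring spots of block 27, 1 of 32 printing blocks. The other miRNAs detected in that block had a median log2 difference of 0.39 for diabetic minus control on day 5 (n = 17), the place 2 from the top among block medians that spanned -0.36 to 0.57. Above that block median, miR-222-3p stood higher by 0.55 and miR-221-3p by 0.23 on day 5. On day 11 the block median was -0.14 (n = 14), and miR-221-3p stood 1.23 and miR-222-3p 0.68 above it. The part of the array position in the day 5 differences was not tested. With the blank spots of that block alone as the blank, the lowest diabetic level exceeded the highest control level by 0.59 (miR-221-3p) and 0.56 (miR-222-3p) on the log2 scale. On day 5 the blank mean of the block was 119.6 against 116.8 for the array in diabetic callus, and 122.5 against 120.1 in control callus. So small a change of blank could move the 3p levels little, and it is no test of array position.

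Taking both days together, the lower of the diabetic levels was 1.54-fold the higher of the control levels for miR-221-3p and 1.46-fold for miR-222-3p. Of the 400 miRNAs detected on all 4 arrays, 53 (13.2%) had both diabetic arrays above both control arrays and 50 (12.5%) had them below, so the separation itself was common. A separation at least as wide as that of miR-222-3p was seen for 6 miRNAs (1.5%), which include both 3p arms, at places 4 and 6. The mark here is the width of miR-222-3p itself, so this share only restates its place. With the local-background correction added, 14 of the 400 (3.5%) were separated upward under both corrections, again including both arms. The mean log2 difference over the days was 0.85 ± 0.090 for miR-221-3p, place 8 of 400, and 0.74 ± 0.14 for miR-222-3p, place 16. By the local-background correction these means were 0.51 and 0.31, at places 20 and 50. The arrays of different days are not replicates of a condition, and these counts describe the 4 pools.

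**Figure D2:**
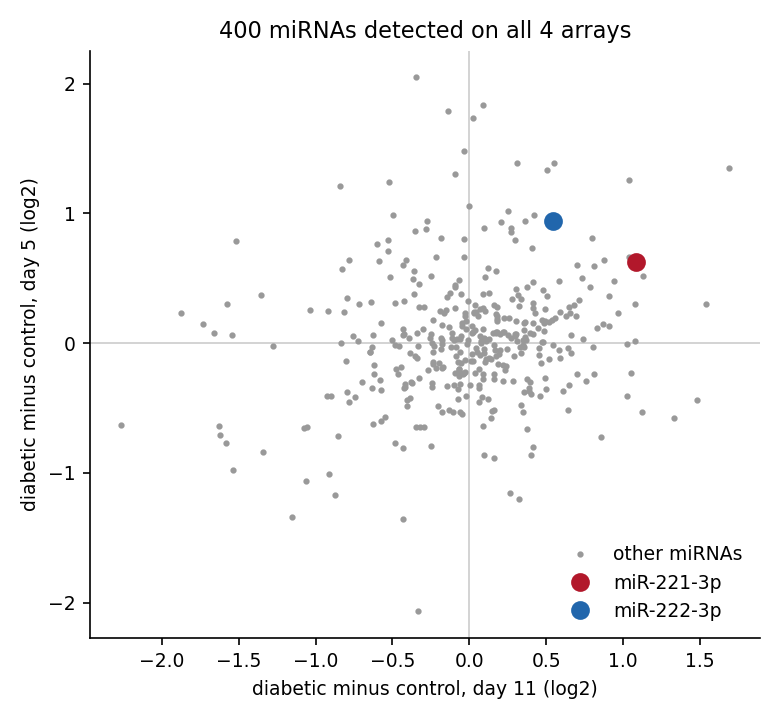
Log2 difference of diabetic minus control callus on day 11 (horizontal) and on day 5 (vertical) for the 400 miRNAs detected on all 4 arrays, each point 1 miRNA. miR-221-3p, at 1.08 and 0.62, and miR-222-3p, at 0.54 and 0.94, lie toward the edge of the quadrant where diabetic callus is higher on both days, which holds 124 of the 400.

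The course of healing was described by day 11 against day 5 within each group. In diabetic callus miR-221-3p was at 778 on day 11 and 730.4 on day 5, a log2 difference of 0.091 ± 0.13. miR-222-3p was at 119 on day 11 and 135 on day 5 there, a difference of -0.19 ± 0.18. In control callus miR-221-3p was at 367 on day 11 and 475 on day 5, or 1.29-fold lower on day 11, with a difference of -0.37 ± 0.12. miR-222-3p was at 81.6 on day 11 and 70.3 on day 5 in control callus, a difference of 0.21 ± 0.22. Of the 4 differences over time, the one of miR-221-3p in control callus was more than 2 times its technical error, and by the local-background correction it had the opposite sign, at 0.11. That correction also put miR-221-3p at 0.61 over time in diabetic callus. None reached 2-fold, which 53 of 444 miRNAs (11.9%) did in diabetic callus and 62 of 446 (13.9%) in control callus in either direction.

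The levels of miR-221-3p therefore ran, from high to low, diabetic day 11, diabetic day 5, control day 5 and control day 11. The diabetic levels did not differ beyond their technical error. For miR-222-3p the order was diabetic day 5, diabetic day 11, control day 11 and control day 5. There the control pair lay within its technical error of 0.22 and the diabetic pair was at the edge of its own, 0.18. The range over the 4 arrays was 2.12-fold for miR-221-3p and 1.92-fold for miR-222-3p.

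The diabetic minus control difference was larger on day 11 than on day 5 for miR-221-3p and smaller for miR-222-3p. The day 11 minus day 5 change of that log2 difference was 0.46 ± 0.18 for miR-221-3p and -0.40 ± 0.29 for miR-222-3p. Of the 400 miRNAs detected on all arrays, 157 (39.3%) and 182 (45.5%) had a change between the days at least as large in either direction. The change of miR-221-3p minus that of miR-222-3p was 0.54 ± 0.24 for diabetic minus control on day 11 and -0.32 ± 0.24 on day 5. Over time it was 0.28 ± 0.22 in diabetic and -0.58 ± 0.25 in control callus. With 1 array per group none of these differences was tested.

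**Figure D3:**
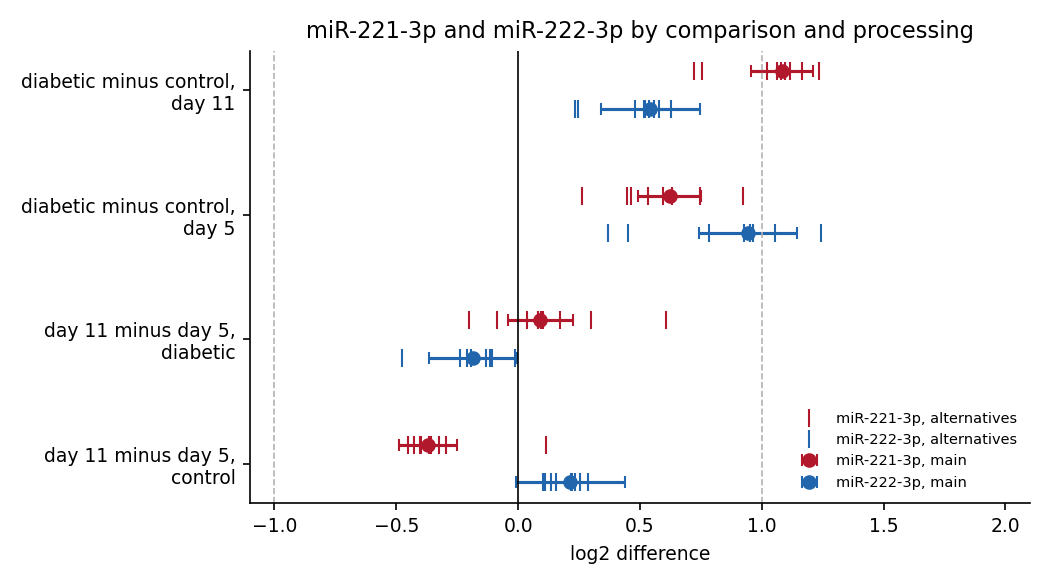
Log2 differences of miR-221-3p and miR-222-3p in the 4 comparisons; dots are the blank-corrected, median-scaled values with the technical error of 1 SD, ticks are the 9 alternative ways of processing, and dashed lines mark 2-fold. Every tick for diabetic minus control lies above 0 on both days, from 0.23 to 1.25, while those for day 11 minus day 5 of miR-221-3p fall on both sides of 0.

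The 5p arms, usually the discarded strands of these precursors, gave almost no signal. The spot of miR-221-5p stood 1.24 blank SDs above the blank mean in diabetic and 0.24 in control callus on day 11. On day 5 it stood -0.11 SDs from the mean in diabetic and -0.12 in control callus, and all 4 values were under the limit of 2 SDs. miR-222-5p stood at -0.37 SDs in diabetic and 2.60 in control callus on day 11, and at 0.42 in diabetic and 2.90 in control callus on day 5. It was therefore detected on both control arrays and on neither diabetic array.

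In control callus miR-222-5p had a level of 14.9 on day 11 and 14.6 on day 5, a log2 difference of 0.035 ± 0.99. The technical error of 1 SD put these levels between 9.01 and 24.7 on day 11 and between 9.18 and 23.1 on day 5. Both ranges reach below the lowest level detected on the diabetic array of the day, 11.9 on day 11 and 11.2 on day 5, so no fold is given. Spots that the files name negative controls were as bright as these signals. Of them, 10 of the 24 were brighter than miR-222-5p in control callus on day 11 and 5 of the 24 on day 5. In diabetic callus 23 of the 24 were brighter on day 11 and 20 on day 5. The 5p signal is thus not separable from that of negative controls on these arrays.

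In bulk tissue, fewer cells that contain a miRNA and less of it per cell cannot be told apart, so marker miRNAs of callus cell types were set beside the 3p arms. All 6 cartilage miRNAs, including both arms of miR-140, and all 3 miRNAs of skeletal mesenchyme were detected on every array, as were 400 of all 727 miRNAs. All members of the other lists, 5 of skeletal muscle, 4 of leukocytes, 2 each of red cells, endothelium and smooth muscle, were detected on every array too. None was at 0, so detection alone does not tell these cell types apart. The lists and both arms were chosen with earlier results of these data known, so the values below are a description.

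Endothelial and smooth muscle markers are of the cell types in which miR-221 and miR-222 are best known. By the blank correction they differed less than the 3p arms between diabetic and control callus on day 11. On day 5 they were close to or below the control level. The summed level of the endothelial markers, both arms of miR-126a, was 4159.9 in diabetic and 3951 in control callus on day 11. The day 5 values were 5492 in diabetic and 6973 in control callus. Endothelial miR-126a-3p had a log2 difference of 0.061 for diabetic minus control on day 11 and -0.35 on day 5. The summed level of the smooth muscle markers miR-143-3p and miR-145-5p was 3836 in diabetic and 3649.7 in control callus on day 11. The day 5 values were 3552 in diabetic and 3574 in control callus. The median log2 difference of the endothelial list was 0.14 on day 11 and -0.32 on day 5. By the local-background correction it was 0.56 on day 11 and -0.44 on day 5. The day 11 value lay between those of miR-222-3p (0.25) and miR-221-3p (0.76) by that correction. The median of the smooth muscle list was 0.056 on day 11 and 0.017 on day 5, and 0.066 and -0.026 by the local-background correction. The other arms of the smooth muscle hairpins, looked at after their values were seen, differed from the listed ones. miR-145-3p, a dim probe, had a log2 difference of 0.91 on day 11 and 0.36 on day 5, against -0.25 and 0.12 by the local-background correction. miR-143-5p had -0.72 on day 11 and 0.30 on day 5, against -1.07 and 0.069 by the local-background correction.

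The cell-cycle list holds miRNAs of the miR-17-92 and miR-106b-25 clusters, which promote proliferation, and on day 11 its members were higher in diabetic callus along with the 3p arms. All 9 were higher under both corrections, as were 33.9% of all 433 miRNAs, with a median of 0.55 against 0.034 for all miRNAs. miR-17-5p was at 1005 in diabetic and 667 in control callus, and miR-19b-3p at 877 in diabetic and 554 in control callus. On day 5 the clusters had a median of -0.014, with 1 of 9 higher and 4 lower under both corrections, while the 3p arms were 1.54-fold and 1.92-fold higher. The background share on day 5 was 38.0% higher and 32.5% lower. All 9 were lower on day 11 than on day 5 in control callus under both corrections (31.8% of all miRNAs were), with a median of -0.86. In that comparison miR-221-3p had -0.37 ± 0.12 and miR-222-3p 0.21 ± 0.22. In diabetic callus the clusters had a median of -0.42 over time, while miR-221-3p had 0.091 ± 0.13 and miR-222-3p -0.19 ± 0.18. These comparisons share arrays with those of the 3p arms.

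Among the other lists, the cartilage miRNAs were lower in diabetic callus on day 11 and the leukocyte miRNAs on day 5 by either correction, in their medians. On day 11 the cartilage miRNAs summed to 5825 in diabetic and 18426 in control callus, and on day 5 to 2756 and 2512. The leukocyte miRNAs summed to 1479 in diabetic and 1229.7 in control callus on day 11, and to 5092 in diabetic and 8383 in control callus on day 5. Their median log2 difference on day 11 was 0.14, but -0.16 by the local-background correction, so its sign depended on the correction. On day 5 it was -0.55, and -0.69 by the local-background correction. The red-cell pair miR-144-3p and miR-451-5p summed to 1556 in diabetic and 1591 in control callus on day 11, and to 1445 in diabetic and 512 in control callus on day 5. The median log2 difference of this pair was -0.0046 on day 11 and 1.61 on day 5. By the local-background correction it was 1.98 on day 11 and 0.85 on day 5. Both members were higher in diabetic callus on day 5 under both corrections (38.0% of all miRNAs were), while the day 11 value depended on the correction. The 1.98 is the midpoint of 2 unlike values, as miR-144-3p had 0.33 by that correction. The mesenchyme miRNAs, led by miR-199a-3p, summed to 30095 in diabetic and 24894 in control callus on day 11, and to 20851 and 20153 on day 5. Their median log2 difference was 0.27 on day 11 and 0.057 on day 5, and 0.59 and 0.13 by the local-background correction. Skeletal muscle miRNAs summed to 9999 in diabetic and 9412 in control callus on day 11, and to 29676 and 28356 on day 5. The median log2 difference of this list was 0.071 on day 11 and 0.052 on day 5. By the local-background correction it was -0.27 on day 11 and 0.0 on day 5, so its sign on day 11 depended on the correction. The part of these cell types in the 3p differences was not tested.

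**Figure D4:**
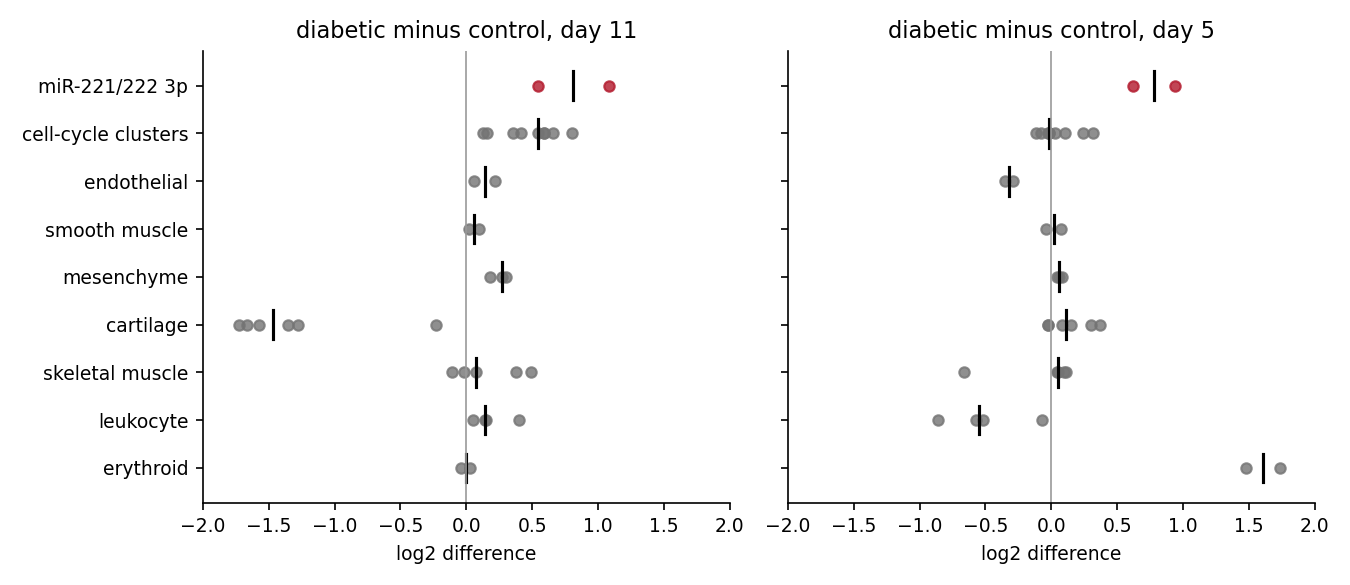
Log2 difference of diabetic minus control callus on day 11 (left) and day 5 (right) for miR-221-3p and miR-222-3p (red) and for the members of 8 lists (grey), each dot 1 miRNA and each bar the list's median. The 3p arms are above 0 on both days, as are all 3 mesenchyme miRNAs by less, with medians of 0.27 on day 11 and 0.057 on day 5. The cell-cycle clusters are above 0 on day 11 with a median of 0.55, and the red-cell pair on day 5 at 1.61. The local-background correction (not drawn) puts the median of the red-cell pair at 1.98 on day 11 and 0.85 on day 5. On day 11 miR-144-3p had 0.33 by it.

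The miRNAs whose profile over the 4 arrays was most like that of each arm were named by the root mean square distance between log2 levels centred on their mean, among the 399 other miRNAs detected on all arrays. For miR-221-3p they were miR-376c-3p (distance 0.13), miR-145-3p, the other arm of the smooth muscle marker miR-145-5p, miR-15b-3p, miR-341 and miR-92b-3p (0.17), against a median distance of 0.53. For miR-222-3p they were miR-3593-5p (0.077), miR-3558-5p, miR-764-5p, miR-3552 and miR-668 (0.16), against a median of 0.48. The partner arm was at a distance of 0.24, place 16 from miR-221-3p and place 12 from miR-222-3p. All 10 were dim, with levels of 10.7 to 46.2 near the detection limit, and 0 of the 5 named for either arm remained among the nearest 5 under the local-background correction.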

How the data were processed

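Total RNA of callus pooled from 5 animals per group was labelled with Cy5 and hybridised to 1 one-colour array, per the labels' protocols. Per the file headers, the deposited scanner files give 1 median intensity for every spot and 1 for its local background, neither subtracted. The authors' steps toward their deposited value table of linear intensity are not given in the sources used here. Set against the scanner files, each value equalled the spot minus the blank mean (highest and lowest 5% of the 1504 blank spots left out), scaled to a median of 25 per array, within 0.114%. The direction is that of intensity.

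Here the same blank mean was subtracted, detection required 2 SDs above it, and arrays were scaled to a median of 100 over the 400 miRNAs detected on all 4. Differences cover miRNAs detected on both arrays, and 2-fold (log2 of 1) was the mark. The technical error combines the larger log2 SD of the 2 spike controls (0.061 to 0.110) with the SD of all blank spots. Alternatives used limma 3.58.1 (normexp on the local background, offset 50, quantile normalisation) in R 4.3.3, and other scalings in Python 3.11.15. The number of arrays, 1 per group, limits the precision. The blank correction, detection, median scaling and quantile normalisation in Python were tested on simulated data, and the other steps were not.

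The rule for named miRNAs was both arms of each miRNA, any miRNA sharing a seed, the 5 nearest profiles per 3p arm, and up to 3 of the brightest of each list. The members and lists were chosen with earlier results of these data known.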

Additional observations from a re-analysis of the deposited data

Results flagged for a closer look

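Between day 11 and day 5 the signs of the 3p arms differed between diabetic and control callus in the blank-corrected, median-scaled values. miR-221-3p had a log2 difference of 0.091 ± 0.13 for day 11 minus day 5 in diabetic callus and -0.37 ± 0.12 in control callus. miR-222-3p had -0.19 ± 0.18 in diabetic callus and 0.21 ± 0.22 in control callus. With 1 array per group the difference between diabetic and control callus was not tested. The values 0.091 and 0.21 lie within their technical error, so opposite directions are not shown. For miR-221-3p the signs also depended on the setting: both were positive with normexp, at 0.61 in diabetic and 0.11 in control callus. Both were negative with no background subtracted, at -0.085 in diabetic and -0.36 in control callus, and with the deposited values, at -0.20 in diabetic and -0.30 in control callus. For miR-222-3p the signs were the same in all 10 settings.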

How the results depend on the processing

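The diabetic minus control values of both 3p arms, on each day and as the mean of both, were positive in all 10 settings, and in each both diabetic levels lay above both control levels. The size moved, and the cause was not tested. miR-221-3p on day 11 passed 2-fold in 8 of 10 settings, and miR-222-3p on day 5 in 2 of 10. All 8 subtract a mean of blank or negative-control spots. The settings that treat background otherwise, normexp and no background subtracted, gave miR-221-3p 0.76 and 0.72. Several settings differ only in the scaling of each array, so the settings are not independent checks.

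With normexp on the local background and quantile normalisation, log2 differences of miR-221-3p were 0.76 (diabetic minus control, day 11), 0.26 (day 5), 0.51 (mean), 0.61 (day 11 minus day 5, diabetic) and 0.11 (control), and those of miR-222-3p 0.25, 0.37 and 0.31 (day 11, day 5, mean). With no background subtracted they were 0.72, 0.45, 0.59 and, over time in diabetic callus, -0.085 for miR-221-3p, with a change between the days of 0.27, and 0.23, 0.45 and 0.34 for miR-222-3p. Quantile normalisation of the blank-corrected values gave miR-221-3p 1.23 on day 11, 0.30 over time in diabetic callus and a change between the days of 0.70. Spike scaling gave it 0.46 on day 5 and 0.76 as the mean. The deposited values, whose median of all miRNAs shifted by 0.34 on day 5 and by -0.29 over time in diabetic callus, gave miR-221-3p 0.92 (day 5), 0.97 (mean), -0.20 (diabetic over time) and 0.096 (change between the days), and miR-222-3p 1.25, -0.48 and -0.77 (day 5, diabetic over time, change between the days). Subtracting the negative-control mean, an alternative chosen after seeing the data like the blank mean of the block, gave miR-221-3p a mean of 0.96.

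Counts of miRNAs past 2-fold moved more. For diabetic minus control on day 11, 17 were higher and 21 lower, against 0 and 5 with no background subtracted, 33 and 60 with negative controls, 58 and 86 with no detection filter, 7 and 12 with a limit of 5 SDs, and 26 higher with a floor for undetected values. On day 5, 20 were higher and 12 lower, against 1 and 1 with normexp and with no background subtracted, 13 and 21 with quantile normalisation, 47 and 5 with deposited values, 107 and 45 with no filter, 5 and 5 with 5 SDs, 44 higher with the floor and 48 lower with negative controls. For day 11 minus day 5 in diabetic callus, 17 were higher and 36 lower, against 5 and 11 with normexp, 1 and 11 with no background subtracted, 8 and 62 with deposited values, 28 and 70 with negative controls, 51 and 122 with no filter, 30 higher with quantile normalisation, 16 lower with 5 SDs and 57 lower with the floor. In control callus 31 were higher and 31 lower, against 9 and 13 with no background subtracted, 86 and 77 with no filter, 19 higher with normexp and 76 lower with negative controls. Of the 5 profiles nearest miR-221-3p, 0 were shared with normexp.

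No paired analysis was possible because each group holds 1 array, and for the same reason no sample was left out. Signal over background limits the 5p arms most, followed by miR-222-3p. Pools, animals and hybridisations cannot be told apart from the groups.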
